A study of Mus musculus with 4 samples.

Results

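Zbtb16, Sall4, Sall1, Glis3, Taf4b, Neurog3 and Pax7 encode transcription regulators that are used to mark or study undifferentiated spermatogonia. These 7 genes were chosen by symbol from the 55421 genes of the count table, and all 7 were among the 20232 genes that passed the filter on low counts. Poly(A) RNA was sequenced from primary spermatogonial cultures of CD1 mice, also called SSC (spermatogonial stem cell) cultures, which were started from neonatal testes and grown on a layer of mouse embryonic fibroblasts. The cultures were grown with GDNF and bFGF, growth factors that keep spermatogonia undifferentiated. The Veh cultures stayed in complete medium. The NRRA cultures were given retinoic acid in a medium with restricted nutrients, in which a balanced salt solution took the place of most of the complete medium. In the paper's recipe GDNF and bFGF are parts of the complete medium, so they were diluted with it. Veh and NRRA therefore differed in these growth factors too, and their part in the changes was not tested. Each group had 2 libraries, numbered replicate 1 and 2, and the study states that its sequencing replicates were biologically independent. No label ties a library to a given culture or animal, and the p-values measure the spread between these libraries. The comparison asks how the factors of the undifferentiated state respond when the cultures are driven towards meiosis.

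The product of Zbtb16, PLZF, is a BTB zinc finger repressor that recruits corepressor complexes and that spermatogonial stem cells need for their long-term maintenance. SALL4 is a zinc finger protein that works with the NuRD chromatin remodelling complex, is made by undifferentiated and early differentiating spermatogonia, and binds PLZF. The 2 proteins are known to antagonise each other. SALL1 is the relative of SALL4 with the same zinc finger architecture, GLIS3 is a Krüppel-like zinc finger factor of early germ cells, and TAF4B is a variant subunit of the general transcription factor TFIID that the germ line uses. NEUROG3 is a basic helix-loop-helix factor of progenitor spermatogonia, and PAX7 is a paired box factor that marks rare single spermatogonia in the young testis.

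Reference promoters were available for 4 of the 7 genes, as the 250 bases before a RefSeq start site (GRCm38.p6, coding strand, 5′ to 3′). The 3 whose start site is also the GENCODE start are printed, because Sall1 and Glis3 fell together with Zbtb16 and Neurog3 fell furthest. Capitals mark the E-box CANNTG, the motif of basic helix-loop-helix factors. The windows lie at chr8:89044163-89044412 for Sall1 (minus strand), chr19:28680078-28680327 for Glis3 (minus strand) and chr10:62132840-62133089 for Neurog3 (plus strand).
Sall1: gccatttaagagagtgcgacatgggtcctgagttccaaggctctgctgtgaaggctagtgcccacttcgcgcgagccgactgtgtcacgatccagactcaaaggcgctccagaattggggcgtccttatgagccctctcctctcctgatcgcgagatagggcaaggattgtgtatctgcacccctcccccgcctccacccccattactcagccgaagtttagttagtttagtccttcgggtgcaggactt
Glis3: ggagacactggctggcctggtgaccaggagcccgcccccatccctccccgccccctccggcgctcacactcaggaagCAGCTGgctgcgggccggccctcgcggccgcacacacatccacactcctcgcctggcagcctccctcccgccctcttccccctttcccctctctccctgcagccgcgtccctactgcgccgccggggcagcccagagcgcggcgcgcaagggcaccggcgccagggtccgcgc
Neurog3: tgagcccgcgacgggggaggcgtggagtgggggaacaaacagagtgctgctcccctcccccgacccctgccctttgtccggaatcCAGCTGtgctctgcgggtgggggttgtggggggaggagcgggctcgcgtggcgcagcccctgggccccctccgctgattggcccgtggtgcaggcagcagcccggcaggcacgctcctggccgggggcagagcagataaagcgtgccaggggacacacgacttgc
Glis3 and Neurog3 each held 1 E-box, spelled CAGCTG in both, and it began 173 bases before the start site in Glis3 and 165 bases before it in Neurog3. Sall1 held none in this window. An E-box was present in 66.2% of the 32851 promoter windows of the same length, so its presence does not set these genes apart. The retinoid receptor half-site AGGTCA, searched on both strands, was in none of these 3 windows and in 14% of all windows. The GC box GGGCGG was found 3 times in Glis3, each time on the opposite strand, not in Sall1 or Neurog3, and in 32.7% of all windows. The motifs did not overlap each other. A match describes the letters only and shows no binding.

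The total count per library lay between 28022265 and 31604769, and the 2 libraries of a group correlated with Pearson's r of 0.993 in Veh and 0.994 in NRRA over genes. Germ cell RNA was present in every library, and Ddx4, which encodes a germ cell RNA helicase, had a mean of 270.3 ± 3.74 CPM in the Veh libraries and 274.6 ± 5.34 CPM in the NRRA libraries (SD, n = 2). CPM scales each count to the library's total after TMM normalization, so that libraries can be compared. Of 12 germ cell markers 6 rose, 4 fell and 2 did not pass the test (7 higher and 2 lower by library size only), and they summed to 2226 and 2290 CPM in the Veh libraries and to 2442 and 2438 CPM in the NRRA libraries. Of 20 fibroblast feeder markers 17 fell and 2 rose (13 lower and 2 higher by library size only, and the same with DESeq2). They held 1.09% and 1.08% of the counts in Veh and 0.878% and 0.856% in NRRA. The lowest of them was Lum (log2 fold change -1.43) and the highest Pdgfra (0.98), and none was at or below 3 counts. Of 11 Sertoli cell markers, 7 were tested, of which 3 rose, 1 fell and 3 did not pass the test, and 3 others (Amh, Rhox5 and Fshr) had at most 3 counts in every library. The summed level of this list was between 46.6 and 51.2 CPM in Veh and between 80.8 and 82.0 CPM in NRRA, but Clu alone went from 8.21 to 58.1 CPM, more than the whole rise of the sum (log2 fold change 2.82, the highest). Sox9 went from 28.2 to 9.38 CPM (-1.59, the lowest). Leydig and peritubular markers summed to at most 16.6 CPM in a library. Of the 8 listed, 2 (Hsd3b1 and Lhcgr) never exceeded 3 counts. The remaining genes of the list did so in at least 1 library, and the Leydig gene Star reached 286 counts in NRRA replicate 1. The highest and lowest log2 fold changes of this list were those of Star (0.31) and Myh11 (-0.88). The part of these markers in the changes of the 7 genes was not tested. In bulk RNA, fewer cells of a type and less RNA per cell cannot be told apart.

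Across all genes, 56.4% were called in either direction at an adjusted p of 0.05, 27.9% higher in NRRA and 28.4% lower, by edgeR's quasi-likelihood test with Benjamini-Hochberg adjustment over all 20232 genes. Against that background, 5 of the 7 genes fell (Zbtb16, Sall1, Glis3, Neurog3 and Pax7), Sall4 rose, and Taf4b did not pass the test. The groups did not overlap in 6 of the 7, where 76.7% of all genes had groups that did not overlap. The median log2 fold change of the 7 was -2.32, beside 0.00029 over all genes tested. On average, they summed to 1191 CPM in the Veh libraries and 610.4 CPM in the NRRA libraries.

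**Figure D1:**
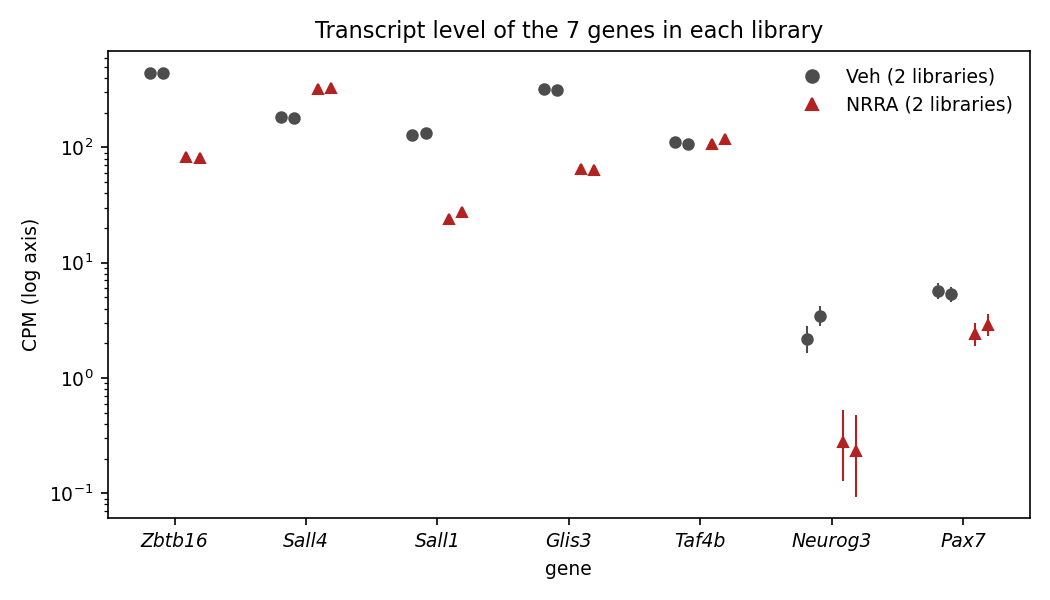
Transcript level of each of the 7 genes in each library, in CPM on a log axis, with circles for Veh and triangles for NRRA. Bars are exact 95% Poisson intervals of the count and cover counting error only. Zbtb16 stood at 441 and 443 CPM in Veh and at 82.1 and 81.4 CPM in NRRA, whereas Sall4 rose from 184 and 178 CPM to 319 and 328 CPM and Taf4b overlapped between the groups.

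Zbtb16 (ENSMUSG00000066687, chr9:48654297-48836222, minus strand, GRCm38) lost most of its transcript. Its 2 Veh libraries held 11963 and 13177 counts, or 441.1 and 442.9 CPM. The NRRA libraries held 2673 and 2450 counts, or 82.07 and 81.38 CPM. Both NRRA libraries lay far below both Veh libraries, and the libraries of a group differed by less than 1.01-fold. The mean fell from 442 ± 1.26 to 81.7 ± 0.489 CPM (SD, n = 2), which left 18.5% of the Veh level. The log2 fold change was -2.44 ± 0.03 (SE), with a 95% interval from -2.50 to -2.37 and an adjusted p of 3.85e-28. Only 1.54% of the genes tested had a lower log2 fold change than Zbtb16. Neither of its 2 annotated transcripts shares exonic bases with another gene.

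Sall4 (ENSMUSG00000027547, chr2:168748332-168767943, minus strand) moved the other way. It held 5004 and 5296 counts under Veh, or 184.5 and 178 CPM, and 10382 and 9874 counts in NRRA, or 318.8 and 328 CPM. Both NRRA libraries were above both Veh libraries. The mean rose 1.78-fold, from 181 ± 4.60 to 323 ± 6.51 CPM (SD, n = 2). The log2 fold change was 0.84 ± 0.03 (SE), with a 95% interval from 0.77 to 0.90 and an adjusted p of 1.65e-18. Of all genes tested, 91.0% had a lower log2 fold change. Of its exonic bases 9.5% lie opposite the exons of Gm14261 on the other strand, and the strand setting of the counting is not given in the sources used here. Gm14261 held 170 and 192 counts under Veh, and 389 and 319 under NRRA, a small number beside those of Sall4.

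The transcripts of Sall4 and Zbtb16 changed places in abundance within each library. A ratio within a library does not depend on library size, and it was taken here per kilobase of exon model. Sall4 stood at 0.399 and 0.384 of Zbtb16 in the Veh libraries and at 3.71 and 3.85 times Zbtb16 in the NRRA libraries. The log2 ratio went from -1.35 ± 0.04 to 1.92 ± 0.04 (SD, n = 2), a change of 3.27 or 9.65-fold. The groups did not overlap, but 2 against 2 libraries allow no exact two-sided permutation p below 0.333. Against Ddx4 in the same library, the raw count of Zbtb16 went from ratios of 1.62 and 1.65 to 0.303 and 0.292, and that of Sall4 from 0.676 and 0.665 to 1.18 in both NRRA libraries. Such a ratio depends on the gene chosen, and the log2 fold changes of the germ cell markers ran from -0.45 (Tdrd1) to 0.66 (Tex15). With the germ cell markers together as the scale, and no test, the log2 fold change was -2.55 for Zbtb16 and 0.72 for Sall4.

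**Figure D2:**
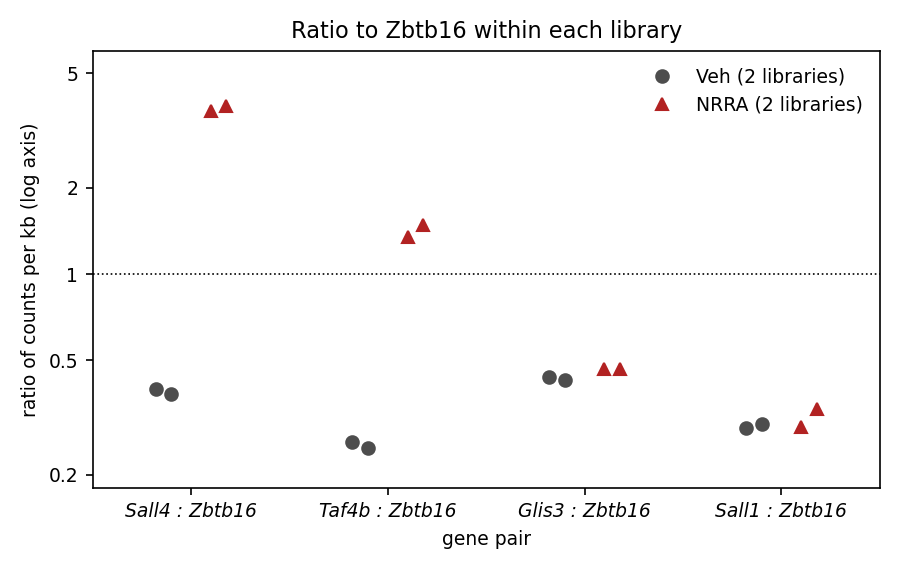
Ratio of the counts per kilobase of exon model of Sall4, Taf4b, Glis3 and Sall1 to that of Zbtb16 within each library, on a log axis, with circles for Veh and triangles for NRRA and a dotted line at a ratio of 1. Sall4 and Taf4b crossed from below to above Zbtb16, while Glis3 and Sall1 lay below it in all libraries. The ratio of Glis3 was 0.436 and 0.428 under Veh and 0.469 and 0.468 under NRRA, without overlap, and that of Sall1 lay between 0.291 and 0.339 with overlapping groups.

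Sall1 (ENSMUSG00000031665, chr8:89027235-89044162, minus strand) fell, although it belongs to the same family as Sall4. It held 3471 and 3938 counts in Veh, or 128 and 132.3 CPM, and 782 and 828 counts in NRRA, or 24.01 and 27.5 CPM. Both NRRA libraries lay below both Veh libraries. The mean fell 5.06-fold, from 130 ± 3.09 to 25.8 ± 2.47 CPM (SD, n = 2), with a log2 fold change of -2.34 ± 0.05 (SE), a 95% interval from -2.45 to -2.23 and an adjusted p of 9.54e-23. Per kilobase, Sall4 was 1.37 and 1.28 times Sall1 in the Veh libraries and 12.6 and 11.3 times Sall1 in the NRRA libraries, so the ratio grew 9.04-fold. Its ratio to Zbtb16 in raw counts was 0.290 and 0.299 in Veh and 0.293 and 0.338 in NRRA, and these ranges overlap.

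Glis3 (ENSMUSG00000052942, chr19:28258851-28680077, minus strand) fell to nearly the same degree. It held 8737 and 9431 counts in Veh, or 322.1 and 317 CPM, and 2097 and 1921 counts in NRRA, or 64.39 and 63.81 CPM. The groups stood far apart and the libraries of each lay close together. The mean fell 4.98-fold, from 320 ± 3.66 to 64.1 ± 0.408 CPM (SD, n = 2), with a log2 fold change of -2.32 ± 0.03 (SE), a 95% interval from -2.38 to -2.25 and an adjusted p of 6.33e-27. Its ratio to Zbtb16 in raw counts was 0.730 and 0.716 under Veh and 0.784 under NRRA in both libraries, a change of 0.12 on the log2 scale, and these values do not overlap. The 95% intervals of Zbtb16, Sall1 and Glis3 overlap in part, and whether their changes differ was not tested.

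Neurog3 (ENSMUSG00000044312, chr10:62133090-62134763, plus strand) was scarce and had the lowest log2 fold change of the 7. It held 59 and 103 counts in Veh, with exact 95% Poisson intervals from 44.9 to 76.1 and from 84.1 to 124.9. In NRRA it held 9 and 7 counts, with intervals from 4.12 to 17.1 and from 2.81 to 14.4. The intervals of the groups did not overlap, and the 2 Veh libraries differed by 1.59-fold. In CPM the values were 2.17 and 3.46 in Veh and 0.276 and 0.233 in NRRA, and the mean fell from 2.82 ± 0.909 to 0.254 ± 0.031 (SD, n = 2). The log2 fold change was -3.45 ± 0.37 (SE), with a 95% interval from -4.21 to -2.70 and an adjusted p of 8.34e-09. Of its exonic bases 16.3% lie opposite exons of Fam241b on the other strand. Fam241b went from 930 and 935 counts under Veh to 284 and 250 under NRRA (log2 fold change -1.95), more than Neurog3 in every library, and the share of Neurog3 counts that came from it was not tested. The study's methods describe a stranded preparation, but the labels name another kit, and whether strand was used in counting is not given in the sources used here.

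Pax7 (ENSMUSG00000028736, chr4:139737062-139833528, minus strand) was also among the less abundant of the 7 genes. It held 154 and 158 counts in Veh, or 5.68 and 5.31 CPM, and 78 and 87 counts in NRRA, or 2.40 and 2.89 CPM. All NRRA values were below the Veh values. The mean fell 2.08-fold, from 5.49 ± 0.260 to 2.64 ± 0.35 CPM (SD, n = 2), with a log2 fold change of -1.06 ± 0.17 (SE), a 95% interval from -1.41 to -0.70 and an adjusted p of 8.86e-06.

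Taf4b (ENSMUSG00000054321, chr18:14783245-14900359, plus strand) stayed near its Veh level. It held 3033 and 3178 counts in Veh, or 111.8 and 106.8 CPM, and 3503 and 3537 counts in NRRA, or 107.6 and 117.5 CPM. The Veh values and the NRRA values overlapped. The means were 109.3 ± 3.55 and 112.5 ± 7.02 CPM (SD, n = 2), and the log2 fold change was 0.04 ± 0.04 (SE) with an adjusted p of 0.419. Its 95% interval, from -0.04 to 0.13, holds changes of either sign. Without TMM scaling, by library size only, Taf4b passed the test as higher (0.13, adjusted p = 0.00842), and over the other settings with a test its adjusted p ran from 0.0654 to 0.926. Per kilobase it went from 0.260 and 0.247 of Zbtb16 in Veh to 1.34 and 1.48 times Zbtb16 in NRRA.

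**Figure D3:**
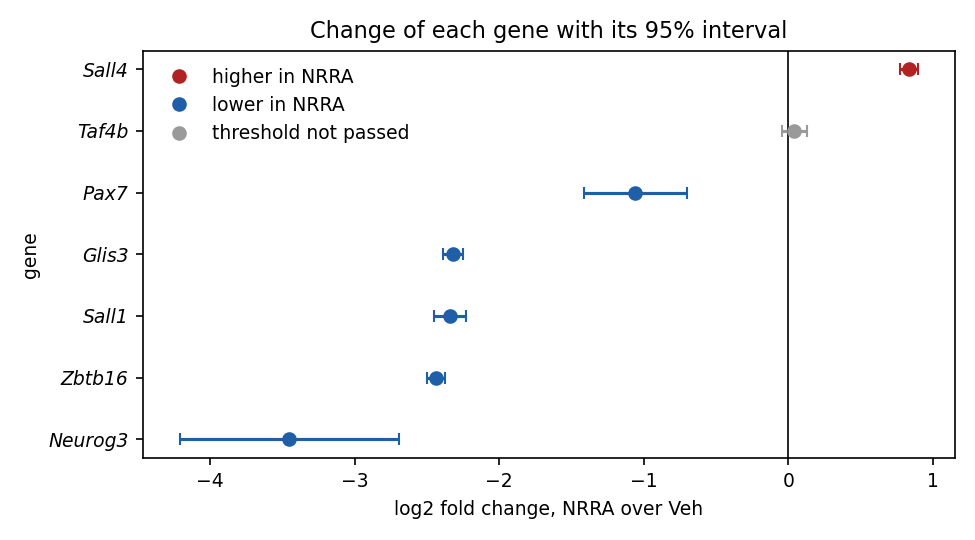
Log2 fold change of each of the 7 genes, NRRA over Veh, with 95% intervals from edgeR's quasi-likelihood fit (2 libraries per group) and a vertical line at no change. Sall4 lies above 0, the interval of Taf4b spans 0, and the other 5 genes lie between -1.06 and -3.45, with the widest interval for Neurog3.

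The order of the genes by level per kilobase of exon model changed with the treatment. In Veh it ran from Zbtb16 (83.7 CPM per kilobase) through Glis3 (36.1), Sall4 (32.7), Sall1 (24.7) and Taf4b (21.2) to Neurog3 (1.68) and Pax7 (0.938). In NRRA, Sall4 stood first (58.4 CPM per kilobase), before Taf4b (21.8), Zbtb16 (15.5), Glis3 (7.25), Sall1 (4.89), Pax7 (0.451) and Neurog3 (0.152). In both groups each gene was above the next in both libraries. Zbtb16 thus went from the first to the third place, and the order of Neurog3 and Pax7 turned round.

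The other genes with a Zbtb symbol did not share the size of the change of Zbtb16. The genome has many ZBTB genes, which pair a BTB domain with zinc fingers. The list was taken by symbol, so BTB zinc finger genes with other symbols were not in it. All 40 genes of this list were tested, and 18 rose, 8 fell and 14 did not pass the test. Zbtb16 had the lowest log2 fold change of these 40 and Zbtb42 the highest (0.95 ± 0.16, SE, from 95 and 99 counts to 200 and 214). Without Zbtb16 the median log2 fold change of the list was 0.09, and 18 of the other 39 were higher and 7 lower. By library size only, 20 of the 40 were higher and 5 lower.

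In the SALL family all 4 genes changed, and Sall4 was the one that rose. Sall3, a further zinc finger gene of the family, fell most. It held 4367 and 4949 counts under Veh but 392 and 306 under NRRA, or 163.7 ± 3.76 and 11.1 ± 1.32 CPM (SD, n = 2), with a log2 fold change of -3.88 ± 0.06 (SE) and an adjusted p of 1.52e-26. Sall2 was low and fell less, from 11.8 ± 0.028 to 8.23 ± 0.174 CPM (log2 fold change -0.52 ± 0.11, adjusted p = 1.87e-04).

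Glis3 went against its closest relatives as well. Glis1 went from 644 and 641 counts to 1339 and 1352, and rose by a log2 fold change of 0.93 ± 0.07 (SE, adjusted p = 7.59e-12). Glis2 rose by 0.71 ± 0.05 (SE), from 56.7 ± 4.08 to 92.6 ± 4.26 CPM (SD, n = 2), although 10.4% of its exonic bases lie opposite Pam16. Among all 6 GLIS and GLI genes, which share the zinc finger type of the Hedgehog effectors, 3 rose, 2 fell and 1 did not pass the test. The lower calls came to 1 without NRRA replicate 1 and with DESeq2. Glis3 was the lowest of them and Glis1 the highest.

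The paralogs of Neurog3 gave almost no reads. Of 8 neurogenin, NeuroD and Atoh1 genes, 6 had at most 3 counts in every library, among them Neurog1 (no count in any library) and Neurog2 (1 count in 1 library). Neurod2, a neuronal helix-loop-helix factor, had no count in Veh and 28 and 34 counts in NRRA, at least 9.41-fold higher than a floor of 3 counts per Veh library. Of 9 PAX genes 6 were tested, of which Pax8 rose, Pax1 and Pax7 fell and 3 did not pass the test. Pax8, a factor of thyroid and kidney development, rose from 56 and 71 counts to 300 and 277 (log2 fold change 2.04 ± 0.16, SE). Pax1 fell about as far as Pax7, from 88 counts in both Veh libraries to 46 and 47 (-1.06 ± 0.23, SE). Pax3, the closest relative of Pax7, had between 2 and 8 counts and was not tested.

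Of the TFIID subunits, 17 were tested and most changes were small. In all 12 were called higher, 4 lower and Taf4b not called, and the median log2 fold change was 0.22. By library size only 13 were higher and 0 lower, also at an unadjusted p of 0.05, and with DESeq2 11 were higher and 2 lower. Without NRRA replicate 1, 11 were higher and 1 lower. Taf4, the ubiquitous counterpart of Taf4b, rose from 44.1 ± 0.468 to 57.8 ± 5.27 CPM (SD, n = 2), with a log2 fold change of 0.39 ± 0.06 (SE, adjusted p = 2.29e-06). Taf4b was therefore 2.29 and 2.16 times Taf4 per kilobase in the Veh libraries and 1.79 and 1.71 times in the NRRA libraries, where these values do not overlap. Taf7l, another germ line subunit, was the highest of the list (0.47 ± 0.03, SE) and Taf8 the lowest (-0.19 ± 0.06, SE).

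**Figure D4:**
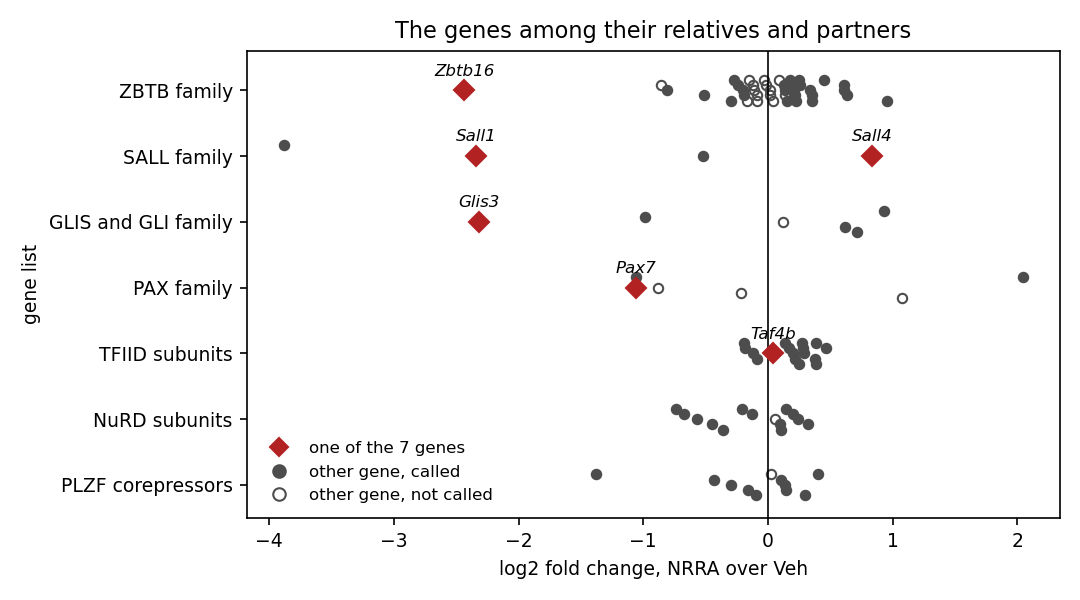
Log2 fold change, NRRA over Veh, of the tested genes of 4 families and 3 complexes. Diamonds are the 7 genes (Neurog3, whose family had 2 tested genes, is not drawn), filled circles other genes that passed the test and open circles those that did not, spread vertically only to be seen. Zbtb16 lies at -2.44, apart from the other genes with a Zbtb symbol between -0.86 and 0.95. Sall1 and Sall4 lie on opposite sides of 0.

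The partners through which the 2 proteins act changed in both directions. NuRD, the complex that SALL4 recruits, had 6 subunits higher, 7 lower and 1 not called among 14, with a median log2 fold change of -0.04. Its ATPase Chd4 was the lowest, falling from 1758 ± 19.4 to 1057 ± 14.5 CPM (SD, n = 2, log2 fold change -0.73 ± 0.02, SE), and the methyl-CpG binding subunit Mbd2 the highest (0.32 ± 0.05, SE). Of 11 corepressors known to bind PLZF, 5 rose, 5 fell and 1 did not pass the test, with a median of 0.03. Sin3b, a scaffold of histone deacetylase complexes, was the highest of the list (0.40 ± 0.03, SE). By library size only the counts were 7 higher and 6 lower for NuRD and 6 higher and 4 lower for the corepressors.

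Other transcription factors of the stem cell state fell as Zbtb16 did. Of 15 such factors, 14 fell and 1, Eomes, did not pass the test (log2 fold change -0.41 ± 0.34, SE, adjusted p = 0.321). Their median log2 fold change was -2.52, close to that of Zbtb16. T, the Brachyury gene, was the lowest, going from 133 and 123 counts to 8 and 5 (-4.42 ± 0.32, SE). Foxo1, a forkhead factor needed for stem cell maintenance, was the highest and fell only slightly, from 200.6 ± 2.98 to 171 ± 2.85 CPM (SD, n = 2, log2 fold change -0.23 ± 0.03, SE). Among 10 factors of spermatogonial differentiation, 7 rose and 3 fell, and their median was 0.64, beside 0.84 for Sall4. Stra8, which retinoic acid induces before meiosis, rose from 9.85 ± 0.325 to 1858 ± 7.88 CPM (SD, n = 2, log2 fold change 7.56 ± 0.04, SE). Sox4, a factor of many immature tissues, was the lowest (-1.12 ± 0.03, SE). These lists were drawn up with earlier results of these data known and describe the position of the 2 genes only.

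**Figure D5:**
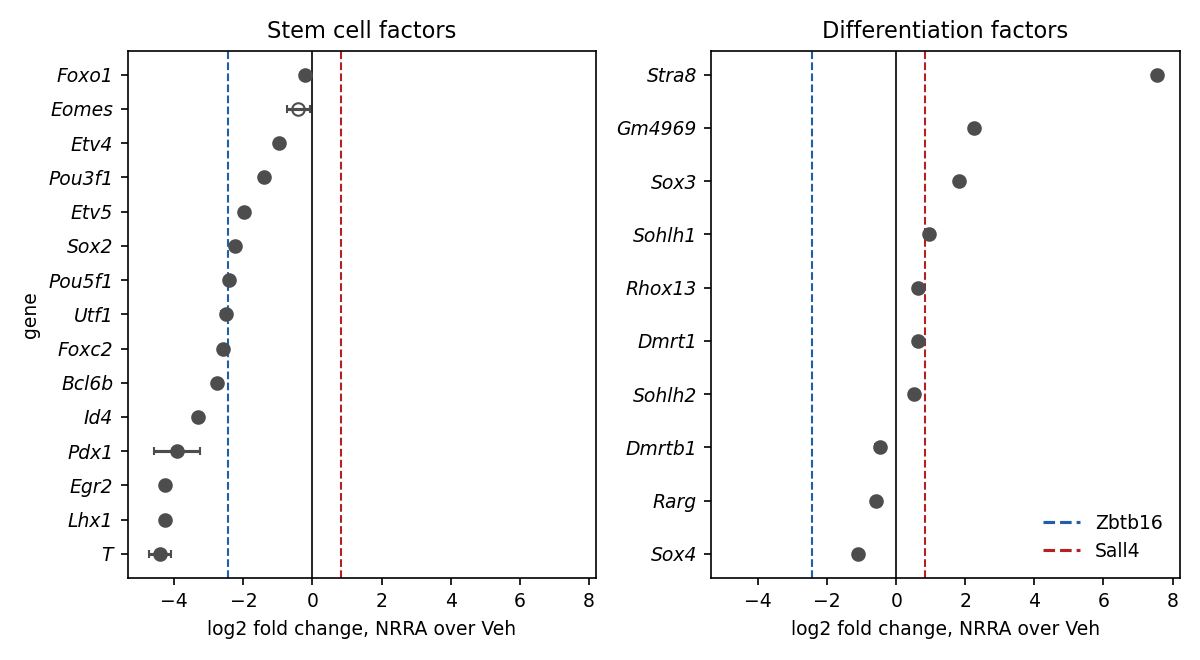
Log2 fold change, NRRA over Veh, of 15 transcription factors of the stem cell state (left) and 10 of differentiation (right), with SE bars and an open circle for Eomes, which did not pass the test. Dashed lines mark Zbtb16 at -2.44 and Sall4 at 0.84. The stem cell factors lie between -4.42 and -0.23 and the differentiation factors between -1.12 and 7.56.

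Genes that the literature ties to PLZF or SALL4 moved both ways. Of 9 such genes, 4 rose and 5 fell, Sall1 among the latter. Kit, the receptor of differentiating spermatogonia that PLZF is known to repress, went from 283 and 328 counts to 16672 and 15685 (log2 fold change 5.59 ± 0.04, SE). Kit was singled out for that role after its values were seen. Nanos3, an RNA-binding protein gene of undifferentiated spermatogonia, was the lowest of the 9, going from 943 and 1042 counts to 28 in each NRRA library (-5.28 ± 0.13, SE). Stra8 was the highest.

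The genes whose pattern over the 4 libraries was most like that of Zbtb16, among the 11326 genes whose log2 CPM averaged 3 or more, were Tmem132c, Enc1 and Chrd. Likeness was the Euclidean distance between log2 CPM values centred on each gene's mean. Tmem132c was at a distance of 0.063 and went from 61.0 and 61.9 CPM to 11.1 and 10.7 CPM. Enc1 was at 0.073 and Chrd, which encodes the secreted BMP antagonist chordin, at 0.084. For Sall4 the nearest genes were Cercam (0.011), Lrba (0.022) and Cnksr2 (0.023). Cercam went from 26.4 and 25.4 CPM to 45.8 and 46.6 CPM. With 2 groups of 2 libraries, such a distance mostly measures how alike the log2 fold changes are, and it says nothing of shared control.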

How the data were processed

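The authors deposited 1 table of counts per gene, whole numbers that were not normalized, for the 4 libraries. Per the labels and the submitters' processing notes, reads were handled with bcl2fastq, STAR 2.6.1c and featureCounts 1.6.4 on mm10. The annotation release, the strand setting and the treatment of multi-mapping reads are not given in the sources used here, so counts of overlapping genes may mix. Groups and replicate numbers came from the sample titles. The column names, which the sample descriptions share, number the Veh libraries 1 higher than the titles do. Positions, exon models and overlaps came from GENCODE M21 (GRCm38), which held 55240 of the 55421 identifiers (99.7%).

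Genes were filtered with filterByExpr, scaled with TMM and tested with edgeR 4.0.16 in R 4.3.3 (quasi-likelihood F test, robust), with Benjamini-Hochberg adjustment over 20232 genes and a threshold of 0.05. The standard errors came from the F statistic, and log2 CPM used a prior count of 2. A count of 3, the floor, was worth between 0.0921 and 0.111 CPM. Counting intervals leave out every other source of error. The code was tested on simulated data.

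DESeq2 1.42.0, other scalings and filters, a replicate block and leaving out each library were tried as alternatives. The genes and the lists were chosen with earlier results of these data known. The text names the 7 genes, their direct paralogs, the highest and lowest log2 fold change of each list, and the 3 genes nearest in pattern to Zbtb16 and to Sall4. Kit, Eomes, Ddx4, genes that overlap a named gene, and markers at or below the floor were named outside this rule, after their values were seen. One gene that this rule names is not reported here.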

Additional observations from a re-analysis of the deposited data

How the results depend on the processing

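The direction and call of Zbtb16, Sall4, Sall1, Glis3, Neurog3 and Pax7 were kept under all 11 alternative settings with a test, and for the 7 genes together 75 of 77 values kept both. The exceptions concern Taf4b. Among the fits that drop 1 library, its log2 fold change lay between -0.023 (NRRA replicate 2 dropped) and 0.109 (NRRA replicate 1 dropped). By library size only it was higher still, at 0.131, and Taf4b became the second of 2 genes called higher. With one library left out at a time, Neurog3 ran from -3.74 (without Veh replicate 1) to -3.07 (without Veh replicate 2) and Pax7 from -1.20 to -0.92. Over all genes, 5654 were called higher and 5752 lower, and the other calls were 6962 and 4593 by library size only (60.2% against 49.6% of calls higher), which moved the median of all genes by 0.09 on the log2 scale, 4529 and 4625 with DESeq2, and between 4996 and 5266 and between 5093 and 5352 without one library. The fit with a replicate block gave 5772 and 5836 and changed no call of the 7 genes. It used the numbers in the titles, which differ from those in the column names for Veh, and the deviations of same-numbered libraries correlated with -0.01, so the numbers give no pairing. Scaled on germ cell markers, with no test, Zbtb16 was at -2.55, Sall4 at 0.72 and Taf4b at -0.07. The log2 ratio of Sall4 to Zbtb16 in raw counts rather than per kilobase was -1.29 in Veh and 1.98 in NRRA. Neurog3 and Pax7 had the fewest counts of the 7 genes, at most 158 in a library. For Neurog3 the counting intervals of the 2 Veh libraries did not overlap (1.656 to 2.806 and 2.825 to 4.198 CPM). Leaving out 1 library leaves its group with 1, which is then assumed to vary like the other group.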
